A study of Mus musculus with 19 samples.

Results

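The S100 genes encode small EF-hand proteins that bind calcium and are mostly found as dimers. S100a8, S100a9, S100a11, S100a10, S100a4 and S100a6 were taken by symbol from a table of 38887 genes, and all 6 were found and passed the expression filter that left 12943 genes to test. S100a8 and S100a9 pair to form calprotectin, which fills the cytosol of neutrophils and monocytes, holds zinc and manganese away from microbes and, once released, signals through receptors such as TLR4 and RAGE. Calprotectin is also among the best known products of myeloid-derived suppressor cells. The remaining members act mainly inside cells. S100a10 binds annexin and AHNAK at the plasma membrane and helps to place plasminogen on the cell surface, S100a11 binds annexins, S100a4 binds nonmuscle myosin, and S100a6 binds the calcyclin-binding protein Cacybp.

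RNA was sequenced from 19 libraries of spleen cells of mice with no stated strain, genotype or treatment. The groups were 5 libraries of newborn M-MDSC, 3 of adult M-MDSC, 5 of newborn PMN-MDSC and 6 of adult PMN-MDSC, where newborns were 7 days old and adults 6 to 8 weeks old. PMN-MDSC are the neutrophil-like and M-MDSC the monocyte-like form of these suppressor cells. Both were enriched on CD11b and separated by a cell sorter. PMN-MDSC were Ly6G positive with intermediate Ly6C, and M-MDSC were Ly6G negative with high Ly6C. One protocol of the labels instead isolates PMN-MDSC on Ly6G beads, and no tumour or infection is named. It is not stated whether a library holds 1 animal or a pool, nor whether replicates are separate animals, and the p-values can speak only of library-to-library spread, technical spread included.

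The labels give 2 batches of very different depth, with totals of 827744 to 2965896 counts (batch 1, 10 libraries) and 14026193 to 45135933 counts (batch 2, 9 libraries). Levels are in CPM, counts per 1000000 of the TMM-scaled library size. Summed monocyte markers separated the cell types without overlap, and summed neutrophil markers did so within newborns and within adults. Across ages the neutrophil sums overlapped, since newborn M-MDSC replicates 2 and 3 reached or passed the adult PMN-MDSC range. Summed over 10 neutrophil markers, the level was 2046 to 8010.0 CPM in newborn M-MDSC, 748 to 1133 CPM in adult M-MDSC, 60585 to 70755 CPM in newborn PMN-MDSC and 6076 to 6286 CPM in adult PMN-MDSC. Summed over 10 monocyte markers, it was 10096 to 13019 CPM in newborn M-MDSC, 7972 to 8528 CPM in adult M-MDSC, 1039.9 to 1253 CPM in newborn PMN-MDSC and 1017 to 1675 CPM in adult PMN-MDSC. Some PMN-MDSC libraries have a close match in the other batch, with a consensus correlation of 0.812 as a block. These matches are newborn 2 with 37 and 3 with 38, and adult 1 with 32, 2 with 33 and 3 with 34. If matched libraries share a source, the standard errors below are too small, so results are also given without the batch 1 partners where a call changes. Kdm5d, a gene of the Y chromosome, had 0 counts in every adult library and 1.28 to 20.1 CPM in every newborn library. Xist, an RNA of female cells, was at 63.0 to 523 CPM in newborn libraries and at 553 to 2148 CPM in adult ones. Every newborn library thus held both RNAs, and whether each pools animals of both sexes was not tested. The sex makeup of the samples cannot be told apart from age.

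All 6 genes lie on mouse chromosome 3, in 2 clusters. On GRCm38, S100a8 runs from 90668978 to 90670035 on the plus strand and S100a9 from 90692632 to 90695721 on the minus strand, so that their left ends are 23.7 kb apart. S100a4 (90603771 to 90606045) and S100a6 (90612882 to 90624181), both on the plus strand, belong to the same cluster. S100a11 (93520488 to 93526287) and S100a10 (93555080 to 93564643), also on the plus strand, lie 2851.51 kb and 2886.1 kb from S100a8. All are annotated as protein-coding. S100a4 shares exon bases with a predicted gene on the same strand, Gm42674, which is not in the count table.

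The promoters of 3 members that were higher in newborns and of S100a4, which was not, are shown so that their sequences can be set beside the levels that follow. They are the 250 bases before the start in RefSeq on GRCm38.p6, for S100a8 chr3:90668821-90669070 on the plus strand, for S100a9 chr3:90695722-90695971 on the minus strand, for S100a11 chr3:93520246-93520495 on the plus strand and for S100a4 chr3:90603520-90603769 on the plus strand. The RefSeq promoter table used here matched 5 of the 6 members by symbol, S100a10 being the other one. Capitals mark matches to 6 motifs, searched on both strands. The motifs were a C/EBP core (TTNNGCAA, in 9.57% of 32817 promoter windows of the same length), a STAT site (TTCNNNGAA, 7.01%), an ETS core as bound by PU.1 (GAGGAA, 23.3%), AP-1 (TGANTCA, 6.75%), a GC box (GGGCGG, 32.7%) and a TATA box (TATAAA, 12.4%).
S100a8: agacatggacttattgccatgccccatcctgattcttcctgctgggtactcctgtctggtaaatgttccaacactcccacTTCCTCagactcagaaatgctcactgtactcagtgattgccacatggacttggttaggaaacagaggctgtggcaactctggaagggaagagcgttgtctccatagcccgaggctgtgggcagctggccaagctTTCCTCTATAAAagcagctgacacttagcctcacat
S100a9: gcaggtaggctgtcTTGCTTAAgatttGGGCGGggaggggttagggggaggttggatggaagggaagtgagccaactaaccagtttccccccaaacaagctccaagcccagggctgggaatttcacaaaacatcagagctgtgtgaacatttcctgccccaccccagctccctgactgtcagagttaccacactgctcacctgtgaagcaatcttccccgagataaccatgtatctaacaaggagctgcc
S100a11: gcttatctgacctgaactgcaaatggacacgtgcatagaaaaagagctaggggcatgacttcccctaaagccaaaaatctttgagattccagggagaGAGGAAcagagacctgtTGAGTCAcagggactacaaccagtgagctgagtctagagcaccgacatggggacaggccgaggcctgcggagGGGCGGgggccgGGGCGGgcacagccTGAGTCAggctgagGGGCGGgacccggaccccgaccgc
S100a4: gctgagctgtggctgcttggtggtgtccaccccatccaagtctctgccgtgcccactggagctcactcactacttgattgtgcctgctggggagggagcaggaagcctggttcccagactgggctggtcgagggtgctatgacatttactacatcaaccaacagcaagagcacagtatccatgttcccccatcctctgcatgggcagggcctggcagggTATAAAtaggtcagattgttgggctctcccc
The S100a8 window held 2 ETS cores on the minus strand and a TATA box 30 bases before the RefSeq start, beside the nearer ETS core. GENCODE starts S100a8 at 90668978, inside this window, so that the TATA box and the nearer ETS core fall within the gene as annotated there. The S100a9 window held a C/EBP match 236 bases before the start and 1 GC box, and no TATA box. In S100a11 there were 3 GC boxes, 2 AP-1 matches and 1 ETS core. S100a4 had a TATA box 31 bases before its start and no other match, and the S100a6 window had none of the 6 motifs. No match overlapped another. The S100a8 and S100a9 windows had no motif of this set in common.

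The calprotectin genes were far higher in newborn than in adult cells of both types, and higher in PMN-MDSC than in M-MDSC at both ages. S100a8 stood at 1103, 2859, 3035, 586 and 936 CPM in newborn M-MDSC replicates 1, 2, 3, 77 and 79, and at 45.9, 114 and 115 CPM in adult M-MDSC replicates 1, 3 and 28. In newborn PMN-MDSC replicates 2, 3, 37, 38 and 39 it stood at 18599.7, 17847, 21697, 20949 and 21482 CPM, against a lowest, median and highest value of 2338, 2469 and 2730.3 CPM in adult PMN-MDSC. Newborn and adult libraries did not overlap in either cell type. The lowest newborn M-MDSC library was still above the highest adult one, while the newborn M-MDSC libraries spread over 5.18-fold and the newborn PMN-MDSC libraries over 1.22-fold.

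S100a9 followed the same order. It was at 705, 2456, 2271, 276 and 436 CPM in newborn M-MDSC, in the same order of replicates, and at 54.1, 72.0 and 119.6 CPM in adult M-MDSC. Newborn PMN-MDSC held 11737, 12006, 13302.5, 13243 and 12267 CPM of S100a9, and adult PMN-MDSC from 1532 to 2037 CPM with a median of 1748 CPM. Again newborn and adult ranges were separate in both cell types.

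**Figure D1:**
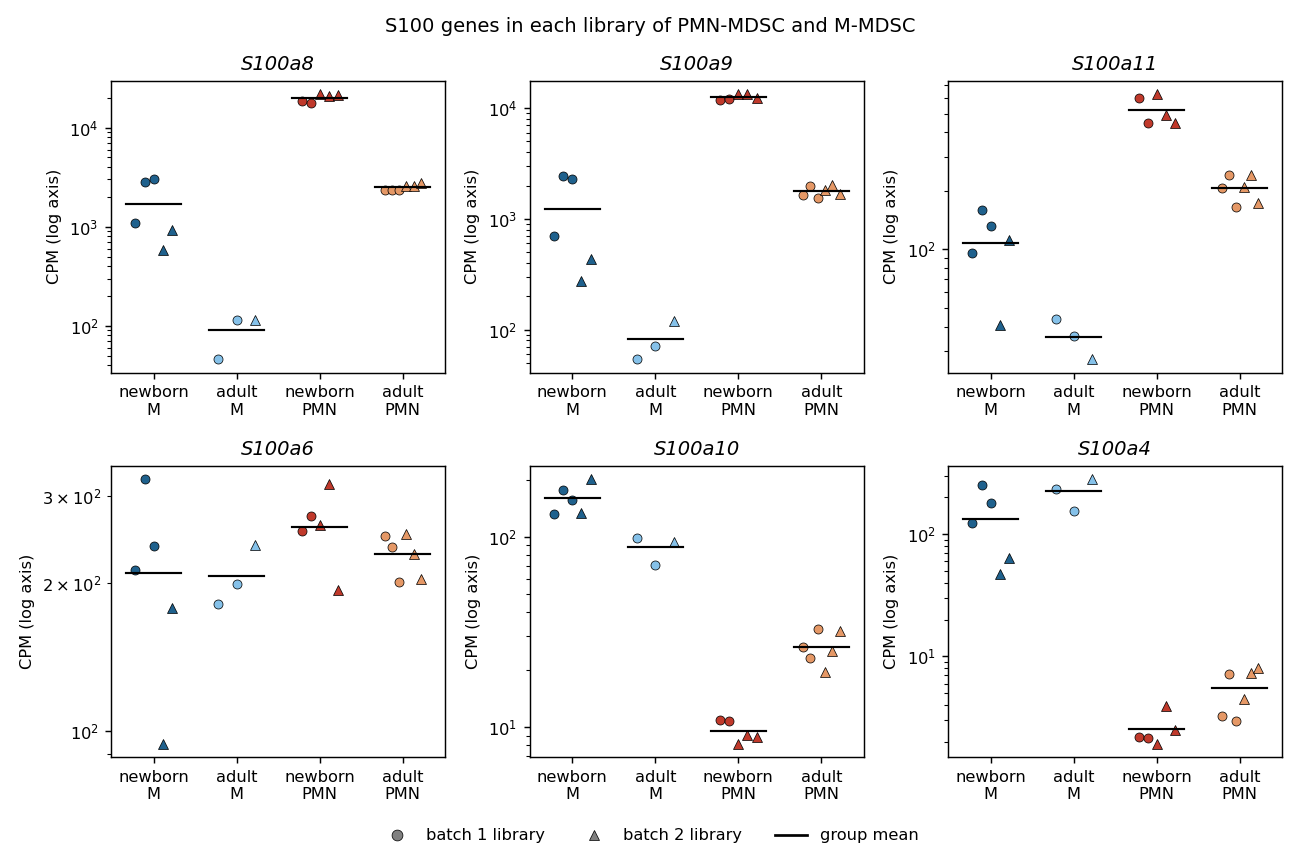
Levels of the 6 S100 genes in CPM on log axes, 1 point per library, with circles for batch 1, triangles for batch 2 and a line at each group mean. Newborn libraries lie above adult libraries for S100a8 and S100a9 in both cell types, S100a10 is above the adults in newborn M-MDSC and below them in newborn PMN-MDSC, and S100a6 overlaps in all 4 groups.

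By edgeR's quasi-likelihood test, S100a8 was 17.8-fold higher in newborn than in adult M-MDSC (95% interval 8.66 to 36.8, log2 fold change 4.16 ± 0.50 SE, adjusted p = 5.32e-06), with means of 1704 ± 1152 CPM (SD, n = 5) and 91.7 ± 39.6 CPM (SD, n = 3). In PMN-MDSC it was 8.18-fold higher in newborns (4.92 to 13.6, log2 3.03 ± 0.35, adjusted p = 9.09e-07), with means of 20115 ± 1768 CPM (SD, n = 5) and 2491 ± 163 CPM (SD, n = 6). S100a9 was 13.7-fold higher in newborn M-MDSC (5.69 to 33.0, adjusted p = 1.21e-04) and 7.17-fold higher in newborn PMN-MDSC (3.85 to 13.3, adjusted p = 2.03e-05). Its means were 1229 ± 1049 CPM in newborn M-MDSC, 81.9 ± 33.9 CPM in adult M-MDSC, 12511 ± 720.4 CPM in newborn PMN-MDSC and 1780.1 ± 206 CPM in adult PMN-MDSC. These fold changes stand beside a median log2 fold change over all tested genes of 0.0067 in M-MDSC and -0.05 in PMN-MDSC.

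The age difference in M-MDSC depended on the batch in size, not in direction. Within batch 1 the log2 fold change of S100a8 in M-MDSC was 4.85 and within batch 2 it was 2.79, and for S100a9 it was 4.83 and 1.64. All 4 values passed the threshold in their own fits (adjusted p = 7.86e-05, 0.00107, 7.59e-05 and 0.00975 in edgeR). In PMN-MDSC the batches gave 2.94 and 3.10 for S100a8 and 2.77 and 2.88 for S100a9. Adult M-MDSC of batch 2 was a single library, which the fit takes to vary like the other groups.

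Whether the age effect was larger in M-MDSC than in PMN-MDSC was tested directly and was not called. The difference of the log2 fold changes was 1.13 for S100a8 (95% interval -0.0095 to 2.26, adjusted p = 0.165) and 0.93 for S100a9 (-0.48 to 2.35, adjusted p = 0.376). The sign turned between batches. For S100a8 the difference was 1.92 in batch 1 and -0.30 in batch 2, and for S100a9 it was 2.06 in batch 1 and -1.24 in batch 2, the last with an adjusted p of 0.0478. Without newborn M-MDSC replicate 77, the library lowest in S100a8 and S100a9 of its group, the difference for S100a8 was 1.42 (adjusted p = 0.0404).

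Set against PMN-MDSC of the same age, M-MDSC held 12.5-fold less S100a8 in newborns (log2 fold change -3.65 ± 0.40, adjusted p = 7.81e-07) and 27.3-fold less in adults (-4.77 ± 0.51, adjusted p = 1.15e-06). For S100a9 the deficit was 11.3-fold in newborns (adjusted p = 1.46e-05) and 21.6-fold in adults (adjusted p = 2.50e-05). The order of the 4 groups was newborn PMN-MDSC, adult PMN-MDSC, newborn M-MDSC and adult M-MDSC for both genes, and only the neighbours in the middle overlapped. Newborn M-MDSC replicates 2 and 3, at 2859 and 3035 CPM of S100a8, were above all adult PMN-MDSC libraries.

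The share of all counts taken by the calprotectin pair was highest in newborn PMN-MDSC and lowest in adult M-MDSC. S100a8 and S100a9 together made up 0.101 to 0.559% of the counts in newborn M-MDSC, 0.0101 to 0.0242% in adult M-MDSC, 2.34 to 2.79% in newborn PMN-MDSC and 0.442 to 0.527% in adult PMN-MDSC. The widest 95% Wilson interval of a single newborn M-MDSC library ran from 0.548 to 0.569%, so counting error, the only error these intervals cover, is small beside the spread between libraries. Ranked by count from 1 for the highest gene, S100a8 had ranks 15 to 145 in newborn M-MDSC, 1663 to 4066 in adult M-MDSC, 3 to 5 in newborn PMN-MDSC and 10 to 17 in adult PMN-MDSC. Of the counts of the 6 S100 members, calprotectin held 71.2 to 88.2% in newborn M-MDSC, 15.2 to 28.8% in adult M-MDSC, 97.2 to 98.1% in newborn PMN-MDSC and 89.2 to 91.3% in adult PMN-MDSC.

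The balance within the pair varied less than its amount. The ratio of S100a8 to S100a9 counts was 1.16 to 2.15 in newborn M-MDSC, 0.848 to 1.58 in adult M-MDSC, 1.49 to 1.75 in newborn PMN-MDSC and 1.17 to 1.64 in adult PMN-MDSC. The 2 newborn M-MDSC libraries of batch 2 had the highest ratios of all, 2.12 and 2.15, while the 3 of batch 1 had 1.16 to 1.56. A batch difference in this ratio was not tested.

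**Figure D2:**
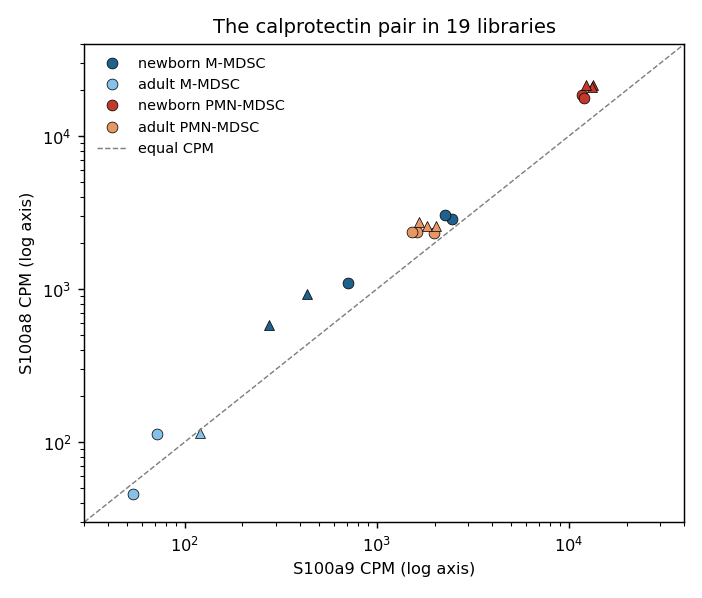
S100a8 against S100a9 in CPM on log axes, 1 point per library (circles batch 1, triangles batch 2), with the dashed line where both are equal. The points run along the line, with newborn PMN-MDSC at the top right, adult M-MDSC at the bottom left, and the 2 newborn M-MDSC libraries of batch 2 farthest above the line.

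Summed neutrophil markers were highest in the newborn M-MDSC libraries that were highest in calprotectin. Replicates 2 and 3, the highest in S100a8 and S100a9, had sums of 8010.0 and 6227 CPM, against 2264, 2046 and 3165 CPM in replicates 1, 77 and 79. Replicate 79 was above replicate 1 in this sum and below it in S100a8 and S100a9. As a percentage of the newborn PMN-MDSC mean, newborn M-MDSC held a median of 5.48% (2.91 to 15.1%) of S100a8 and 5.64% (2.21 to 19.6%) of S100a9. Among the markers the same measure gave 9.96% (6.39 to 32.3%) for Camp, the cathelicidin of neutrophil granules, 3.44% (2.40 to 15.7%) for Ngp and 4.00% (2.07 to 7.65%) for Ltf, which encodes lactoferrin. Ly6g, on which the sort excluded cells, was at 0 to 0.868%, Mmp9, the gelatinase of late granules, at 0.400 to 0.840% and Retnlg at 0.0927 to 0.698%. The remaining markers Csf3r, Cd177, Mmp8 and Cxcr2 were at medians of 31.1% (27.7 to 36.9%), 6.13% (3.52 to 10.2%), 3.65% (2.55 to 4.49%) and 4.10% (2.48 to 6.18%). These spread less over the libraries than S100a8 and S100a9 did. None of the 10 markers was at 0 in the group as a whole. In adults, M-MDSC held 1.84 to 4.63% of the PMN-MDSC mean of S100a8 and 3.04 to 6.72% of S100a9. The adult values of the markers ran on both sides of these. Ly6g was at 0 to 4.23%, Cxcr2 at 0.0916 to 2.33%, Mmp9 at 0.542 to 2.11% and Retnlg at 0.556 to 1.73%. Csf3r, Mmp8, Ltf and Ngp lay between 8.12 and 24.5%, Camp at 31.6 to 103% and Cd177, an activation marker of neutrophils, at 125 to 177%.

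Summed erythroid and eosinophil markers were also higher on average in newborns of both cell types. Summed over 10 genes, erythroid markers stood at 1624, 2853, 1036, 35.9 and 111 CPM in newborn M-MDSC replicates 1, 2, 3, 77 and 79, against 56.9 to 535 CPM in adult M-MDSC, where Klf1 was at 0. They stood at 3012 to 5517 CPM in newborn PMN-MDSC, against 185 to 487 CPM in adult PMN-MDSC. With age, 0 of 10 were called in M-MDSC, against 30.2% of all tested genes. In newborn PMN-MDSC 8 were called higher and 0 lower, against 27.2% and 20.5% of all genes. Summed over 9 genes, eosinophil markers stood at 228, 162, 158, 215 and 63.7 CPM in newborn M-MDSC, in the same order of replicates. Replicates 1 and 77 were the highest of these. The eosinophil sums stood at 15.3 to 53.5 CPM in adult M-MDSC, 346 to 871 CPM in newborn PMN-MDSC and 70.7 to 144 CPM in adult PMN-MDSC. Of these 9, 5 were called higher and 1 lower in newborn M-MDSC, where 15.9% of all genes were higher and 14.3% lower. In newborn PMN-MDSC 6 were called higher and 1 lower, where the shares of all genes were those just given for that comparison. Epx, Ear1 and Ear6 were at 0 in adults of both types, and Prg3 in adult M-MDSC. In PMN-MDSC, Ly6g, on which these cells were sorted, was itself at 175 to 244 CPM in newborns and 12.0 to 24.6 CPM in adults. Summed over 10 genes, macrophage markers were at 2065 to 2553 CPM in newborn and 1993 to 4056 CPM in adult PMN-MDSC. B cell markers were at 598 to 913 CPM in newborn and 4058 to 6494 CPM in adult PMN-MDSC. The part of neutrophil, erythroid, eosinophil, macrophage or B cell RNA in the calprotectin values was not tested. In such bulk samples fewer cells of a type and less RNA per cell cannot be told apart.

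**Figure D3:**
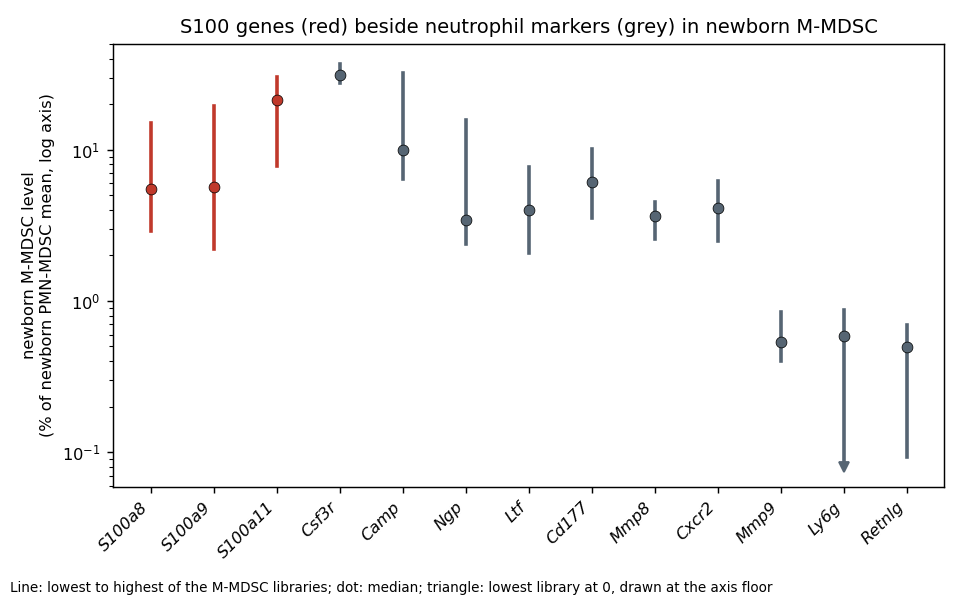
Level in newborn M-MDSC as a percentage of the newborn PMN-MDSC mean, on a log axis, for 3 S100 genes and the 10 neutrophil markers, with lines from the lowest to the highest of 5 libraries and dots at the median. S100a8 and S100a9 lie among Camp, Ngp, Ltf, Cd177, Mmp8 and Cxcr2, with medians of 6.13% for Cd177, 3.65% for Mmp8 and 4.10% for Cxcr2. They lie below Csf3r, with a median of 31.1%, and above Mmp9, Ly6g and Retnlg, which are under 0.868% in every library.

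S100a11, an annexin-binding member, changed in the same directions as calprotectin and by less. In newborn M-MDSC it was at 95.4, 159.8, 132, 40.8 and 112 CPM in replicates 1, 2, 3, 77 and 79, and in adult M-MDSC at 43.7, 35.6 and 27.2 CPM. Newborn PMN-MDSC held 599, 449.6, 629, 494 and 446 CPM, and adult PMN-MDSC 166 to 242 CPM with a median of 209 CPM. The ages were apart in PMN-MDSC, whereas newborn M-MDSC replicate 77 fell within the adult M-MDSC range.

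S100a11 was 3.06-fold higher in newborn M-MDSC (log2 1.61 ± 0.31, adjusted p = 5.79e-04) and 2.57-fold higher in newborn PMN-MDSC (1.36 ± 0.23, adjusted p = 7.94e-05). The call in M-MDSC was lost within batch 2, where the log2 fold change was 1.57 (adjusted p = 0.0848). M-MDSC had 5.18-fold less S100a11 than PMN-MDSC in newborns (log2 -2.37 ± 0.26, adjusted p = 7.64e-07) and 6.16-fold less in adults (-2.62 ± 0.32, adjusted p = 5.43e-06). The difference of the age effects was 0.25 (95% interval -0.53 to 1.03, adjusted p = 0.696). A processed copy of the gene, S100a11-ps, had 0 counts in all 19 libraries.

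S100a10, the annexin and AHNAK partner, changed with age in opposite directions in the 2 cell types. Newborn M-MDSC replicates 1, 2, 3, 77 and 79 held 131, 176, 156, 134 and 202 CPM, and adult M-MDSC 99.0, 71.2 and 93.4 CPM. Newborn PMN-MDSC replicates 2, 3, 37, 38 and 39 held 10.9, 10.8, 8.14, 9.09 and 8.85 CPM, against 19.3 to 32.9 CPM with a median of 25.7 CPM in adult PMN-MDSC. No group overlapped another, so that newborn M-MDSC were highest and newborn PMN-MDSC lowest of the 4.

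In M-MDSC, S100a10 rose 1.82-fold in newborns (log2 0.86 ± 0.20, adjusted p = 0.00302), with means of 159.7 ± 29.7 CPM (SD, n = 5) and 87.9 ± 14.7 CPM (SD, n = 3). In PMN-MDSC it was 2.81-fold lower in newborns (log2 -1.49 ± 0.18, adjusted p = 1.39e-06), with means of 9.55 ± 1.23 CPM (SD, n = 5) and 26.4 ± 5.24 CPM (SD, n = 6). The difference of the age effects was 2.35 ± 0.27 on the log2 scale (95% interval 1.79 to 2.92, adjusted p = 1.15e-05). It was 2.19 within batch 1 and 2.40 within batch 2, and 2.31 without the batch 1 partners of matched libraries, called each time. The M-MDSC age effect on its own was not called within batch 2 (0.91, adjusted p = 0.111) or in a fit of only the groups compared (0.80, adjusted p = 0.0554).

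The contrast between the cell types was therefore much larger in newborns for S100a10. M-MDSC held 17.0-fold more than PMN-MDSC in newborns (log2 4.09 ± 0.19, adjusted p = 4.11e-11) and 3.32-fold more in adults (1.73 ± 0.19, adjusted p = 1.28e-06), and the test of this difference is the one just given. B cell markers were higher in adults of both types. Summed over 10 genes they were at 166 to 275 CPM in newborn M-MDSC, 951 to 2369.7 CPM in adult M-MDSC, 598 to 913 CPM in newborn PMN-MDSC and 4058 to 6494 CPM in adult PMN-MDSC, with none of the 10 at 0 in a group. Mean sums of monocyte, macrophage, dendritic, plasma, T, NK, and mast cell and basophil markers were also higher in adult than in newborn PMN-MDSC. Those of neutrophil, eosinophil, erythroid, and megakaryocyte and platelet markers were lower. The part of any of these cells in the S100a10 values was not tested.

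S100a4, the myosin-binding member also known as a marker of motile cells, was almost absent from PMN-MDSC. It was at 124, 253, 181, 47.3 and 64.2 CPM in newborn M-MDSC and at 236, 154 and 284 CPM in adult M-MDSC, with overlapping ranges. In PMN-MDSC it was at 2.18, 2.16, 1.93, 3.90 and 2.49 CPM in newborns and at 2.99 to 8.08 CPM with a median of 5.84 CPM in adults, where the ranges overlapped too. The counts behind these PMN-MDSC values were 4 to 69 per newborn library and 3 to 369 per adult library. A count of 3, the limit that a count of 0 allows, is worth up to 3.28 CPM in the shallowest library, so batch 1 says little about this gene in PMN-MDSC.

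M-MDSC had 44.6-fold more S100a4 than PMN-MDSC in newborns (95% interval 22.5 to 88.3, log2 5.48 ± 0.47, adjusted p = 3.92e-08) and 35.0-fold more in adults (18.8 to 65.2, log2 5.13 ± 0.43, adjusted p = 5.34e-08). Its age effect in PMN-MDSC was -1.18 ± 0.42 (adjusted p = 0.0251). The direction held under all 35 alternatives run (-1.62 to -1.01) and the call under 27 of them, among them the fit within batch 2 (-1.21, adjusted p = 0.0199). The call was lost within batch 1 (-1.20, adjusted p = 0.151), when matched libraries formed a block in limma-voom (-1.62, adjusted p = 0.147), without their batch 1 partners (-1.22, adjusted p = 0.0803) and without any of 5 single libraries (adjusted p = 0.0504 to 0.0689). These were adult replicates 33 and 34 (log2 -1.06 and -1.01) and newborn replicates 2, 3 and 37 (-1.10, -1.08 and -1.08). In M-MDSC the age effect was -0.84 ± 0.42 (95% interval -1.71 to 0.037, adjusted p = 0.141). There it was -0.078 within batch 1 (adjusted p = 0.886) and -2.28 within batch 2 (adjusted p = 0.00504), and it was also called without newborn M-MDSC replicate 2 (-1.18, adjusted p = 0.0289) and when matched libraries formed a block in limma-voom (-1.45, adjusted p = 0.0133).

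S100a6, or calcyclin, was the level member. Its values were 212, 325, 238, 94.3 and 178 CPM in newborn M-MDSC, 181, 199 and 239 CPM in adult M-MDSC, 255, 274, 262, 317 and 194 CPM in newborn PMN-MDSC and 201 to 252 CPM with a median of 233 CPM in adult PMN-MDSC. Every pair of groups overlapped, and no comparison was called. The log2 age effect was -0.012 ± 0.25 in M-MDSC (95% interval -0.54 to 0.52) and 0.21 ± 0.21 in PMN-MDSC (-0.23 to 0.65), so changes of up to about those bounds remain possible. M-MDSC against PMN-MDSC gave -0.38 ± 0.23 in newborns (-0.86 to 0.091) and -0.17 ± 0.25 in adults (-0.68 to 0.35). Upper-quartile scaling turned the sign of the age effect in PMN-MDSC to -0.033, and the M-MDSC age effect was 0.44 within batch 1 and -0.74 within batch 2, neither called. In newborns the cell type effect was called within batch 2 (-1.01, adjusted p = 0.0405) and without newborn M-MDSC replicate 2 (-0.62, adjusted p = 0.0271).

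**Figure D4:**
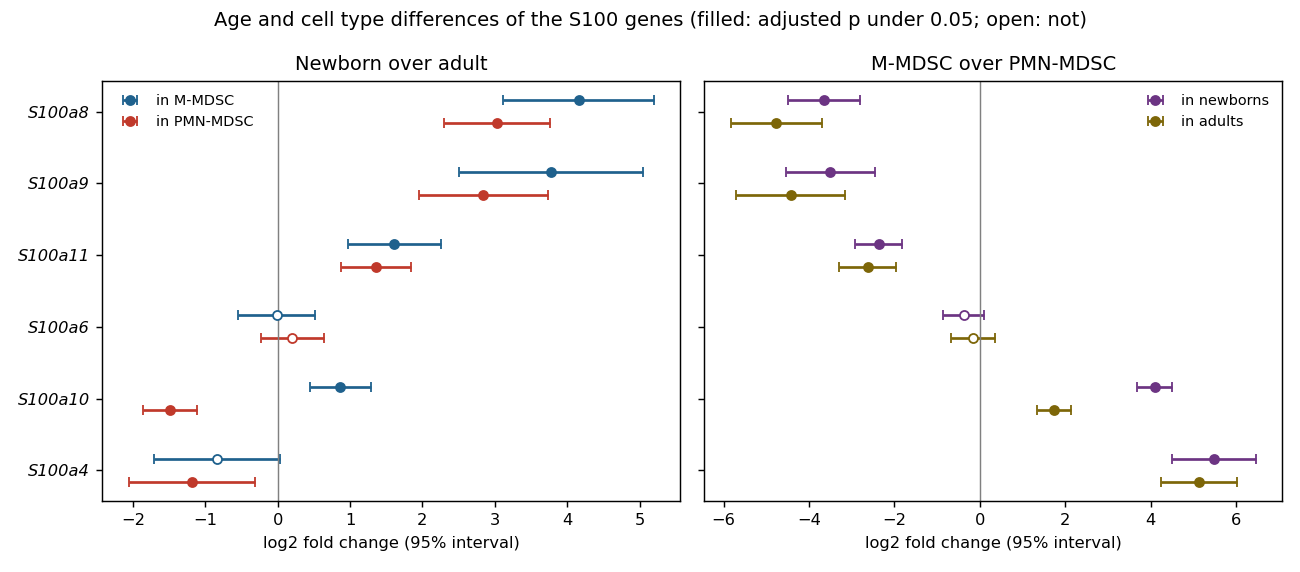
Log2 fold changes of the 6 S100 genes with 95% intervals, newborn over adult on the left and M-MDSC over PMN-MDSC on the right, filled where the adjusted p is under 0.05. S100a8, S100a9 and S100a11 lie above 0 in both age comparisons and below 0 in both cell type comparisons, S100a10 changes sign between the age comparisons (0.86 in M-MDSC and -1.49 in PMN-MDSC), and S100a4 is above 0 only on the right, by 5.48 and 5.13.

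Counted over the members, 4 of 6 were called higher and 0 lower in newborn M-MDSC, where 30.2% of all 12943 tested genes were called, 15.9% higher and 14.3% lower. In newborn PMN-MDSC, 3 were higher and 2 lower, against 47.7% of all genes called, 27.2% higher and 20.5% lower. The difference of the age effects was called for 1 member, which was higher, against 18.1% of all genes, 6.61% higher and 11.5% lower. For M-MDSC over PMN-MDSC, 2 members were higher and 3 lower at both ages. Of all genes, 42.0% were called there in newborns (18.6% higher, 23.4% lower) and 29.1% in adults (16.7% higher, 12.5% lower). Groups did not overlap for 3 members in the M-MDSC age comparison (23.1% of all genes), 4 in the PMN-MDSC one (51.4%), and 5 each between cell types in newborns (38.4%) and adults (29.7%). The comparisons share libraries, so these counts are not independent of each other.

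Per kilobase of exon, the scale on which genes can be set beside each other, the leading member differed between groups. In newborn M-MDSC, S100a8 led at 3506 ± 2370.2 CPM per kb (SD, n = 5), before S100a9 at 2354 ± 2010.1, S100a6 at 287 ± 116, S100a11 at 211 ± 87.2, S100a4 at 184 ± 117 and S100a10 at 132 ± 24.5. Adult M-MDSC were led by S100a4 at 309 ± 89.8 CPM per kb (SD, n = 3) and S100a6 at 282 ± 40.9, with S100a8 at 189 ± 81.6, S100a9 at 157 ± 64.9, S100a10 at 72.5 ± 12.1 and S100a11 at 69.5 ± 16.2. In newborn PMN-MDSC, S100a8 reached 41389 ± 3638 CPM per kb (SD, n = 5) and S100a9 23968 ± 1380.0, while S100a10 was at 7.88 ± 1.01 and S100a4 at 3.47 ± 1.09. Adult PMN-MDSC had the same leaders, S100a8 at 5126 ± 335 and S100a9 at 3410.2 ± 394 CPM per kb (SD, n = 6). Exon lengths of 486 to 1212 bases are short for length scaling, so these ratios between genes are approximate. The lengths join the exons of all listed transcripts. For S100a10 this gave 1212 bases against 685 in its longest listed transcript, and for S100a4 728 against 498. The order of the lower members could change with that choice.

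Of the 12 other S100 genes listed, 11 were in the table and 2 passed the filter. S100a1, best known from heart muscle, was 1.70 ± 0.54 higher on the log2 scale in newborn M-MDSC (adjusted p = 0.0233) and 1.70 ± 0.44 higher in newborn PMN-MDSC (adjusted p = 0.00360). Its mean level was 21.3 ± 14.6 CPM in newborn M-MDSC, 6.47 ± 1.03 CPM in adult M-MDSC, 6.24 ± 1.38 CPM in newborn PMN-MDSC and 1.82 ± 0.530 CPM in adult PMN-MDSC. S100a13, a cofactor for the release of growth factors without a signal peptide, was called in PMN-MDSC (1.83 ± 0.68, adjusted p = 0.0323) and not in M-MDSC (1.09 ± 0.89, adjusted p = 0.383).

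Both lie in the S100a8 cluster, where neighbours of the members could be examined. Within 300 kb of a member the GENCODE annotation holds 59 other genes, of which 7 passed the filter. All 7 lie on the S100a4 side of this cluster, starting at -375.8 to -154.5 kb from S100a8, with S100a4 at -65.2 kb. No gene closer to S100a8 or S100a9, other than members, passed the filter. In newborn PMN-MDSC 6 of the 7 were called higher and 0 lower, against 27.2% of all genes higher and 20.5% lower. In newborn M-MDSC 2 of the 7 were called higher, against 15.9% of all genes. The genes called in both were S100a1 and Ilf2, which encodes a double-stranded RNA-binding protein and was higher by 1.88 ± 0.32 in newborn M-MDSC (adjusted p = 2.26e-04) and by 1.27 ± 0.24 in newborn PMN-MDSC (adjusted p = 2.53e-04). None of the 30 annotated neighbours of S100a11 and S100a10 passed the filter. Within the clusters neighbouring members differed in direction. In PMN-MDSC S100a8 had a log2 age effect of 3.03 and S100a4, 65.2 kb away, one of -1.18, and S100a11 one of 1.36 while S100a10, 34.6 kb away, had -1.49.

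**Figure D5:**
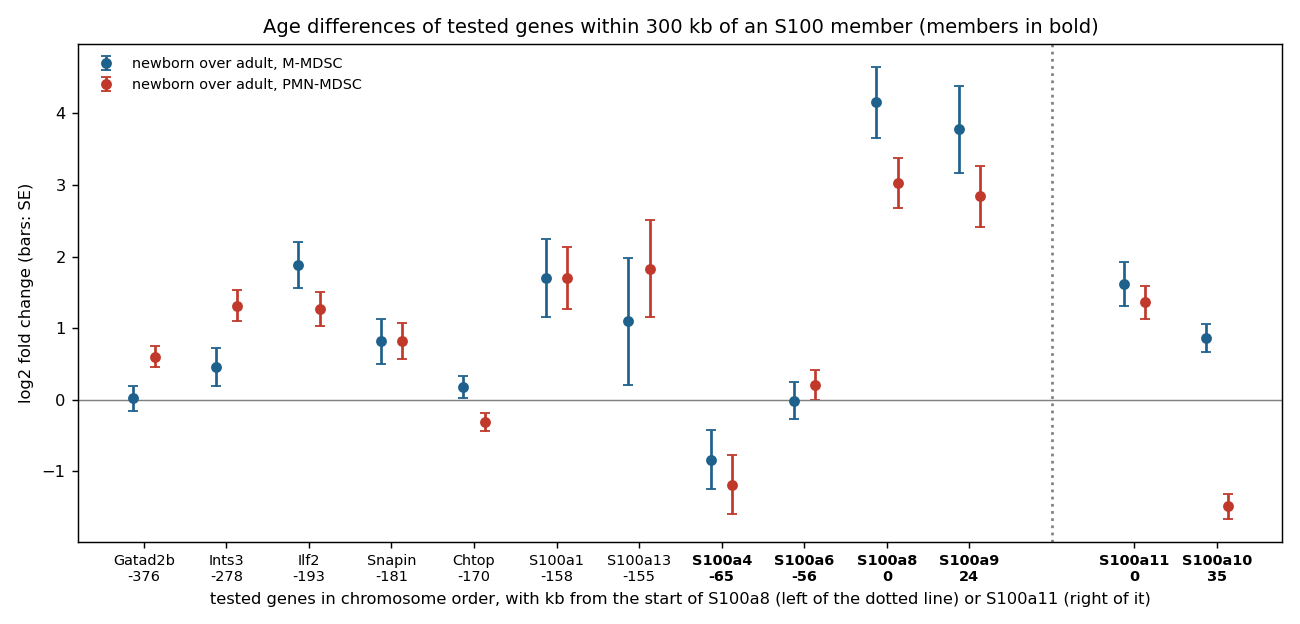
Log2 fold change of newborn over adult with its SE for every tested gene within 300 kb of a member, in chromosome order with distances in kb, M-MDSC in blue and PMN-MDSC in red. S100a8 and S100a9 stand at 2.84 to 4.16 in both cell types, above their neighbours from Gatad2b to S100a6, of which the highest is 1.88, and S100a10 is the gene with called values of opposite sign.

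The genes whose pattern over the 19 libraries was most like each member were sought by the root mean square difference of centred log2 CPM. S100a8 and S100a9 were each other's nearest gene at 0.33, followed by Chil1, a chitinase-like gene of neutrophils, at 0.60 from S100a8 and 0.53 from S100a9. S100a11 was nearest to Tmem154 (0.32) and Igf1r (0.39), and S100a10 to Tmem109 (0.35) and Pld4 (0.38). S100a4 was nearest to Arhgef10l (0.64) and Kifc3 (0.78), and S100a6 lay beside Fuca1 and Casc3, both at 0.18. A flat gene such as S100a6 has small distances by its small spread, with an SD of 0.37 log2 units over the libraries against 2.57 for S100a8. The libraries share their group structure, so likeness is a description.

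Receptors to which S100 proteins bind were split. Of 10 tested, 2 rose and 2 fell in newborn M-MDSC and 3 rose and 4 fell in newborn PMN-MDSC, with medians of -0.047 and -0.31. Of all genes, 30.2% were called in M-MDSC and 47.7% in PMN-MDSC. Cd33, a sialic acid-binding receptor for S100A9 in human cells, was higher in newborn M-MDSC by 1.08 ± 0.31 (adjusted p = 0.0128) and in newborn PMN-MDSC by 1.62 ± 0.24 (adjusted p = 1.76e-05). Mcam, an adhesion molecule that binds calprotectin, was higher by 3.42 ± 0.53 in newborn PMN-MDSC (adjusted p = 5.17e-05). Cd36, the scavenger receptor that takes up fatty acids carried by calprotectin, fell by 1.88 in newborn M-MDSC and by 1.72 in newborn PMN-MDSC on the log2 scale (adjusted p = 0.00331 and 2.47e-04). Tlr4 was lower in M-MDSC than in PMN-MDSC of adults (-2.25 ± 0.32, adjusted p = 4.36e-05). Ager, the gene of RAGE, was named after its values were seen. Its log2 age effect was -0.25 ± 0.58 in M-MDSC and 0.86 ± 0.49 in PMN-MDSC, not called.

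Partners of the intracellular members were mostly higher in newborns where called. Of 12 tested, 5 rose and 1 fell in newborn M-MDSC (median 0.30), where 30.2% of all genes were called, and 7 rose and 3 fell in newborn PMN-MDSC (median 1.13), where 47.7% were. Anxa1, an annexin that binds S100a11, averaged 601 ± 135 CPM in newborn M-MDSC, 251 ± 59.1 CPM in adult M-MDSC, 6037 ± 558 CPM in newborn PMN-MDSC and 472 ± 53.6 CPM in adult PMN-MDSC. Its log2 age effect was 1.24 ± 0.19 in M-MDSC and 3.66 ± 0.16 in PMN-MDSC, and the difference of -2.42 ± 0.23 was called (adjusted p = 1.56e-06). Ahnak, the scaffold that S100a10 joins with annexin, averaged 4190 ± 1312 CPM in newborn M-MDSC, 8384 ± 4289 CPM in adult M-MDSC, 168 ± 16.6 CPM in newborn PMN-MDSC and 681 ± 61.8 CPM in adult PMN-MDSC. Like S100a10 it was higher in M-MDSC than in PMN-MDSC, by 4.65 ± 0.27 in newborns and by 3.64 ± 0.26 in adults, but it was lower in newborns than in adults of both types (-1.01 ± 0.27 in M-MDSC, adjusted p = 0.00776, and -2.02 ± 0.24 in PMN-MDSC, adjusted p = 1.14e-06). Anxa2, the annexin of the S100a10 complex, was also named after its values were seen. It rose by 0.58 ± 0.20 in newborn M-MDSC (adjusted p = 0.0364) and by 1.07 ± 0.17 in newborn PMN-MDSC (adjusted p = 2.68e-05), where S100a10 fell. Myh9, the heavy chain of the myosin that S100a4 binds, rose by 0.73 in newborn M-MDSC and by 1.80 in newborn PMN-MDSC.

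Transcription factors tied to S100a8 and S100a9 did not move one way. Of 10 tested, 2 rose and 3 fell in newborn M-MDSC (median -0.36, 30.2% of all genes called), and 4 rose and 4 fell in newborn PMN-MDSC (median -0.17, 47.7% called). Cebpe, a factor of late granulocyte development, averaged 127 ± 50.1 CPM in newborn M-MDSC, 17.1 ± 14.7 CPM in adult M-MDSC, 582 ± 76.7 CPM in newborn PMN-MDSC and 11.4 ± 4.76 CPM in adult PMN-MDSC. Its log2 age effect was 2.74 ± 0.46 in M-MDSC (adjusted p = 2.01e-04) and 5.70 ± 0.40 in PMN-MDSC (adjusted p = 1.36e-09). Cebpb, which drives granulocyte production under stress, was -1.76 ± 0.24 in newborn PMN-MDSC (adjusted p = 6.76e-06). Klf4, a factor of monocyte development, fell by 3.45 in newborn PMN-MDSC (adjusted p = 1.73e-07), and Irf7, a regulator of interferon genes, fell by 2.32 in newborn M-MDSC (adjusted p = 1.19e-04).

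The NADPH oxidase, to which calprotectin delivers arachidonic acid, had all 7 of its tested genes called higher in newborn PMN-MDSC (median 2.25), where 27.2% of all genes were. In newborn M-MDSC 4 of 7 were called higher and 0 lower (median 0.50), where 15.9% of all genes were called higher. Cybb, its membrane subunit, averaged 1297 ± 342 CPM in newborn M-MDSC, 1334 ± 299 CPM in adult M-MDSC, 3572 ± 206 CPM in newborn PMN-MDSC and 463 ± 22.3 CPM in adult PMN-MDSC. The difference of its age effects was -2.999 ± 0.25 (adjusted p = 3.32e-07). That difference was called, with a smaller effect in M-MDSC, for all 7 genes, against 11.5% of all genes. Ncf1, a cytosolic subunit, rose by 1.10 ± 0.18 in newborn M-MDSC (adjusted p = 1.14e-04) and by 2.77 ± 0.15 in newborn PMN-MDSC (adjusted p = 5.13e-11). The S100a8 difference, by contrast, was 1.13 and not called.

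Most genes of granulocyte stages were higher in newborns of both cell types, as calprotectin was. Of 16 tested, 11 rose and 1 fell in newborn M-MDSC (median 2.84), where 15.9% of all genes were higher and 14.3% lower. In newborn PMN-MDSC 12 rose and 3 fell (median 3.39), where 27.2% of all genes were higher and 20.5% lower. The difference of the age effects was called higher for 2 and lower for 5, against 6.61% and 11.5% of all genes. For M-MDSC over PMN-MDSC, 4 were higher and 12 lower in newborns, against 18.6% and 23.4% of all genes. In adults 4 were higher and 10 lower, against 16.7% and 12.5%. Calprotectin was lower there at both ages. Mpo, the myeloperoxidase of primary granules, rose by 5.06 in newborn M-MDSC (adjusted p = 6.40e-07). Lcn2, an iron-scavenging protein of secondary granules, averaged 967 ± 513 CPM in newborn M-MDSC, 71.0 ± 32.1 CPM in adult M-MDSC, 12133 ± 596 CPM in newborn PMN-MDSC and 494 ± 41.1 CPM in adult PMN-MDSC, with log2 age effects of 3.73 ± 0.40 and 4.62 ± 0.31. Mmp8, neutrophil collagenase, rose by 3.34 ± 0.15 in newborn PMN-MDSC (adjusted p = 1.03e-11). Chil3, another chitinase-like gene, differed most between the types, with an age effect of 0.37 ± 0.26 in M-MDSC (adjusted p = 0.316), 4.65 ± 0.24 in PMN-MDSC (adjusted p = 4.93e-11) and a difference of -4.28 ± 0.34 (adjusted p = 2.20e-07). Part of this list is also among the neutrophil markers above.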

How the data were processed

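RNA was measured in 19 mouse libraries, prepared with a total RNA kit and sequenced single-end at 50 bp, per the labels' protocols. Gene-level estimated counts, whole and not normalized, were deposited by the authors as 1 table. The submitters' processing notes name RSEM 1.2.3, the build mm10 and, with no role, DESeq2. For the aligner and the gene annotation, the sources used here give nothing. RSEM shares reads among related genes, and use of strand is not stated, so close paralogs and antisense pairs are uncertain. No rounding was needed, since 0 values were not whole. Of 38887 identifiers, 37570 (96.6%) were in GENCODE M21 on GRCm38, which gave coordinates and exon lengths.

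Groups, replicate numbers and batches came from the labels. All libraries entered 1 model in edgeR 4.0.16 (R 4.3.3, quasi-likelihood test) with a coefficient per group and for batch, TMM scaling and filtering by filterByExpr with the groups, leaving 12943 genes and 14 residual degrees of freedom. Adjusted p-values are Benjamini-Hochberg values over all of them, called under 0.05. Each standard error is the log2 fold change over the root of F. The 5 comparisons were newborn over adult in each cell type, the difference of these effects (M-MDSC minus PMN-MDSC), and M-MDSC over PMN-MDSC at each age. Fits were tested on simulated data.

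The members and gene lists were chosen with earlier results of these data known. Other genes named were the tested S100 genes, up to 3 per list and comparison with the smallest adjusted p, the 2 most like each member, and neighbours called in both age comparisons. Likeness used log2 CPM with a prior count of 2. Some genes within this rule are left out of the text. Alternatives covered scaling, filters, batch terms, single batches, blocks, DESeq2 1.42.0, limma-voom (limma 3.58.1), and each library left out. The matched PMN-MDSC libraries were known from earlier results.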

Additional observations from a re-analysis of the deposited data

Results flagged for a closer look

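The S100a10 age effect differed between the cell types. Newborn over adult was 0.86 in M-MDSC and -1.49 in PMN-MDSC on the log2 scale, a difference of 2.35 ± 0.27 (edgeR, adjusted p = 1.15e-05). All 5 newborn M-MDSC libraries were above all 3 adult ones, and all 5 newborn PMN-MDSC libraries were below all 6 adult ones. The difference ran from 2.19 to 2.53 over 34 alternatives and was called in each.

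S100a4 in newborn PMN-MDSC replicate 38 stood apart from its group, at 3.90 CPM against 1.93 to 2.49 CPM in the other libraries. The gap to the nearest library took 0.716 of the group's range, just above the critical value of 0.71. It was the only library singled out in this way over 18 sets of member levels, and chance singles out about 1 set in 20. The value rests on 69 counts.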

How the results depend on the processing

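Over the 6 members and 5 comparisons, 18 of 30 results kept their direction and side of the threshold under all alternatives run, and 1007 of 1044 single values did so, while 11 lost a call, 6 gained one and 20 changed sign, and except where a value below says so the cause was not tested. Sign changes concerned effects that were not called in the main analysis. For S100a6 the M-MDSC age effect was 0.44 within batch 1, 0.19 with limma-voom, 0.021 with the members left out of scaling or with no filter, 0.017 with haemoglobin, immunoglobulin and mitochondrial genes left out of scaling and 0.012 with no batch term, and -0.22 to 0.22 with single libraries left out. Its PMN-MDSC age effect was -0.033 under upper-quartile scaling and its adult cell type effect 0.037 with a batch coefficient per cell type. The difference of its age effects was 0.24 within batch 1, 0.0052 with limma-voom and -0.43 to 0.00090 with single libraries left out. Within batch 2 the difference was -1.07 for S100a4, -0.30 for S100a8 and -1.24 for S100a9, and for S100a4 it ran from -0.010 to 0.72 with single libraries left out. Members called in the difference were 2 within batch 2 and 1 to 2 with single libraries left out (2 without newborn M-MDSC replicate 77). All genes called for age in M-MDSC were 3909 in the main analysis, 2315 with limma-voom and 1267 with only the groups compared. For age in PMN-MDSC they were 6172, against 3759 within batch 1, 9548 with only the groups compared and 3740 without the batch 1 partners of matched libraries. For the cell types they were 3772 in adults, against 1368 within batch 1, 6457 within batch 2, 1820 with limma-voom, 2407 without the partners and 2250 to 5037 with single libraries left out (2250 without adult M-MDSC replicate 28), and in newborns 5437, against 3231 within batch 1. For the difference they were 2347, against 407 within batch 1, 4254 within batch 2 and 967 without the partners. Fits on fewer libraries have fewer degrees of freedom by construction. The median PMN-MDSC age effect over all genes shifted by -0.24 under upper-quartile scaling and by -0.17 under DESeq2 size factors, and with it the split of genes called higher and lower to 2756 and 3552, and 2982 and 3304, from 3516 and 2656. In newborns, upper-quartile scaling turned the cell type split to 2934 and 2528 from 2413 and 3024, and for the difference it gave 1157 and 1134 in place of 856 and 1491. Same-numbered libraries of batch 1 had gene-wise correlations of deviations from -0.047 to 0.18 over 12 pairs, and other pairs from -0.18 to 0.075 over 25. The highest were adult PMN-MDSC with adult M-MDSC of the same number (0.182 for replicate 3 and 0.176 for replicate 1). In a group of 2 libraries the deviations mirror each other, so these values cannot tell whether a number stands for a shared source. With a replicate block the S100a8 age effect was 4.08 in M-MDSC and 2.92 in PMN-MDSC and that of S100a10 0.85 and -1.50, and the block changed no member's call. Depth limits S100a4 in PMN-MDSC and the S100 genes that did not pass the filter.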

Other observations

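Among the S100 genes that did not pass the expression filter, S100a7a, a relative of the skin protein psoriasin, was seen in PMN-MDSC. It had 106 counts in 5 of 5 newborn PMN-MDSC libraries (1.43 ± 0.371 CPM) and 16 counts in 1 of 6 adult ones. M-MDSC had 0 counts, which allows up to 0.0575 CPM over the newborn and 0.139 CPM over the adult group. S100a3 had 53 counts in 5 of 5 newborn and 35 counts in 4 of 6 adult PMN-MDSC libraries, and 0 in M-MDSC. S100b, S100g and S100z were at 0 in all 19 libraries.

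Genes that handle zinc, manganese and calcium, the ions calprotectin binds, were mixed. Of 12 tested, 4 rose and 3 fell in both newborn M-MDSC (median 0.41) and newborn PMN-MDSC (median -0.094), where 30.2% and 47.7% of all genes were called. Calm3, a calmodulin gene, rose by 1.35 in newborn M-MDSC (adjusted p = 7.34e-05 in edgeR) and by 1.12 in newborn PMN-MDSC (adjusted p = 1.48e-05). Slc39a1, a zinc importer, fell by 0.68 in newborn M-MDSC (adjusted p = 6.39e-04), and Slc39a10, another, fell by 1.61 in newborn PMN-MDSC (adjusted p = 9.27e-05).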
